A study of Mus musculus with 8 samples.

Results

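The IFIT and MX antiviral effectors are transcripts that cells switch on in response to interferon. The set was fixed by name as Ifit1, Ifit2, Ifit3, Mx1, Mx2, Rsad2, Cmpk2, Ifi44 and Bst2, and each gene was taken from the row that the array's annotation pairs with that symbol alone. Of these 9 genes, 8 had such a row, out of 22180 genes with a row in all; Ifi44 was not analysed here. RNA came from CD45+ CD11b+ Ly6C-high cells, a gate for inflammatory monocytes and the macrophages they give rise to, sorted from tumours of individual mice and hybridised to 1 Affymetrix array per mouse. The irradiated group was 4 mice whose tumours received 20 Gy, and the sham group was 4 mice given a sham treatment; tumours of both groups were taken 1 day later. All 8 animals were 8-week-old female C57BL/6 mice carrying, under the skin of the flank and for 14 days before treatment, tumours of cell line 152. That line came from spontaneous tumours of KPC mice, which carry the alleles KrasLSL-G12D/+ and Trp53LSL-R172H/+ with Pdx1-Cre, so all tumours came from 1 line and none grew in the pancreas.

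Interferons signal through cell surface receptors to the kinases Jak1 and Tyk2, which activate transcription factors that include Stat2 and Irf9. These bind interferon-stimulated response elements in promoters and drive a large set of antiviral genes. Monocytes and macrophages respond strongly to interferon, and the genes described here are among those most often used to read out the response. RefSeq's annotation of the C57BL/6J genome lists Mx1 and Mx2 as transcribed pseudogenes, and most inbred laboratory strains are known to carry defective MX alleles, so the 2 MX transcripts report on transcription rather than on a working protein.

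The genes lie partly in clusters. In RefSeq's gene order no annotated gene lies between Rsad2 and Cmpk2 on chromosome 12. The stretch of chromosome 19 from Ifit2 to Ifit1 holds 7 annotated genes, among them Ifit3 and the relatives Ifit3b, Ifit1bl1 and Ifit1bl2. The promoter windows of RefSeq (build GRCm38.p6), each from 250 bases before to 50 bases after the gene start, were searched on both strands for the core of the response element, GAAA, any 2 bases and GAAA again (TTTC, any 2 bases and TTTC on the other strand). Of 32851 windows in the table, 3.44% held at least 1 match and 0.225% held 2 or more. Mx1 and Mx2 had no window. The 6 other measured effector genes had 7 windows, and 4 of these windows, each of a different gene, held a match. Ifit1, Ifit3 and Bst2 had 2 each, those of Bst2 overlapping, and Rsad2 had 1. The windows of Ifit2 and Cmpk2 held none of these letters. The 4 windows with a match are printed here, together with that of Ifit3b, the close copy of Ifit3. Matches to the core of the response element are in capitals and the rest in lower case. Whether the matched stretches act as response elements was not tested.
Ifit1 (chr19:34640639-34640938, plus strand): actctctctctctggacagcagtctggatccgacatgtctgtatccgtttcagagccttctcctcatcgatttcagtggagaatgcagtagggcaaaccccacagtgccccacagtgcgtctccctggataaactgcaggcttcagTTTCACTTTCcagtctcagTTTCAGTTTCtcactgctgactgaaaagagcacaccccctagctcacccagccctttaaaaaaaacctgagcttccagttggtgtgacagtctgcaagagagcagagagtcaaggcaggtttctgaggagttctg
Ifit3 (chr19:34583279-34583578, plus strand): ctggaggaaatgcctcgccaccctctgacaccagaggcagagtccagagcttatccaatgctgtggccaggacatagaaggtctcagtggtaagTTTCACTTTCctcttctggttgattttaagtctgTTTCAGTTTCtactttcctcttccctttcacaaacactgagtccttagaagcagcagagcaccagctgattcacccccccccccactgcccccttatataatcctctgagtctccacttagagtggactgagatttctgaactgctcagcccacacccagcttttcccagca
Ifit3b (chr19:34607707-34608006, plus strand): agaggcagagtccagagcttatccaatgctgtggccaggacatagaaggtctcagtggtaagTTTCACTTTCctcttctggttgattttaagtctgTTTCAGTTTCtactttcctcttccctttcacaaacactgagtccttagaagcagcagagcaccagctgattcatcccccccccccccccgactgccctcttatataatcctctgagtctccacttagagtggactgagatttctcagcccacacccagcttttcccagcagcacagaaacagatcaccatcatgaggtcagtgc
Rsad2 (chr12:26456403-26456702, minus strand): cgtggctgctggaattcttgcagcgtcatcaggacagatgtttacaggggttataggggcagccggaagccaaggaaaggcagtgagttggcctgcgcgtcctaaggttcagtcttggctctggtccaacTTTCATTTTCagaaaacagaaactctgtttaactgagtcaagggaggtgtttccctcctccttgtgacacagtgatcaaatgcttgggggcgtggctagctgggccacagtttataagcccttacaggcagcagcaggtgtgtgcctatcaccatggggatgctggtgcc
Bst2 (chr8:71537423-71537722, minus strand): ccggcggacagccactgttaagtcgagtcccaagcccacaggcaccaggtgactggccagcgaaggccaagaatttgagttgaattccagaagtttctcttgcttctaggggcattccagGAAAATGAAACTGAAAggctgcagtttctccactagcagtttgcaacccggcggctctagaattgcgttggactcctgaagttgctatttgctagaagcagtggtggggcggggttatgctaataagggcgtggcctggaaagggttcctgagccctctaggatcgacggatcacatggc
Counted from the gene start, the matches began at -104 and -85 in Ifit1, at -156 and -122 in Ifit3, at -120 in Rsad2 and at -130 and -124 in Bst2. The Ifit3 and Ifit3b windows shared a run of 169 identical bases that holds both of their matches.

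All levels below are log2 values, so a difference of 1 is a doubling. The array medians lay between 4.68 and 4.73, and every effector gene lay above them on every array. The sort's own genes were alike in the groups: Ptprc, which encodes CD45, averaged 11.62 ± 0.09 in irradiated and 11.66 ± 0.05 in sham mice, and Itgam, which encodes CD11b, 11.12 ± 0.12 and 10.94 ± 0.18 (SD, n = 4 each). Ly6c2, which encodes Ly6C, was more variable, at 11.76 ± 0.71 in irradiated and 11.55 ± 0.42 in sham mice. Groups were compared with limma on all 22180 genes, with Benjamini-Hochberg adjustment and a threshold of 0.05. No gene passed (0% of those tested). An unadjusted p under 0.05 was reached by 6.07% of genes, counting 454 with a higher mean in irradiated mice (2.05%) and 893 with a lower one (4.03%).

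The 8 effector transcripts averaged higher in irradiated than in sham mice, by 0.46 to 1.32 on the log2 scale, but the excess lay mainly in irradiated mice 1 and 2. In these 2 animals each of the 8 transcripts exceeded all 4 sham mice. In irradiated mouse 3 the transcripts above all sham mice were Ifit1, Mx1, Rsad2 and Cmpk2, and in irradiated mouse 4 there were 0. Averaged over the 8 genes, the level was 8.99, 8.64, 7.87 and 7.40 in irradiated mice 1 to 4, against 7.68, 7.35, 7.08 and 7.82 in sham mice 1 to 4. Irradiated mouse 4 thus lay within the sham range and irradiated mouse 3 just above its top.

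The count of 8 higher genes of 8 compares with 42.2% of all genes above 0, and differences above 0.4 were found for 1.5% of all genes. The median difference of the effectors was 0.69, against -0.03 over all genes. None of the 8 passed the adjusted threshold in limma, with adjusted p from 0.819 to 0.857. Those with an unadjusted p under 0.05 were 3, Mx1, Mx2 and Cmpk2, where 2.05% of all genes were higher at that level. For 0 of the 8 were the groups free of overlap, where 1.12% of all genes had every irradiated mouse above every sham mouse and 2.56% every irradiated mouse below.

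**Figure D1:**
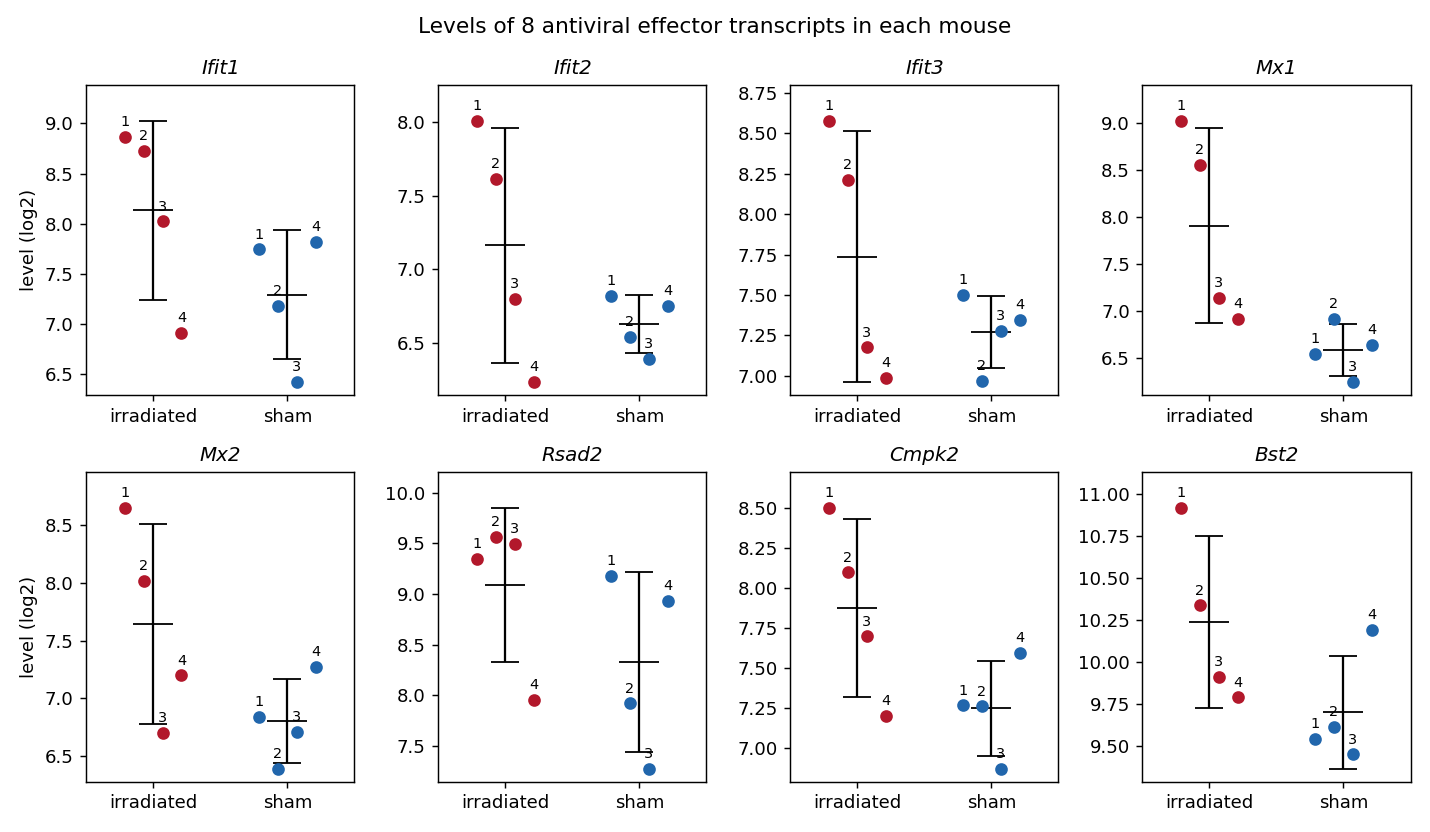
Levels (log2) of the 8 effector transcripts in each mouse, irradiated in red and sham in blue, with the mouse number beside each point; bars give the mean and SD of 4 mice, and the vertical axes differ between panels and do not start at 0. Irradiated mice 1 and 2 lie above all sham mice in every panel, while irradiated mouse 4 lies within or below the sham values in every panel.

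Mx1 and Mx2 encode dynamin-like GTPases that, where functional, trap incoming viral ribonucleoproteins. Mx1 stood at 9.02, 8.56, 7.14 and 6.92 in irradiated mice 1 to 4, against 6.55, 6.92, 6.25 and 6.64 in sham mice 1 to 4. Only irradiated mouse 4 failed to clear the highest sham mouse, at 6.919 against 6.923 in sham mouse 2. The difference of 1.32 ± 0.42 (SE; 95% interval 0.38 to 2.25) was the largest of the 8 genes, a 2.49-fold higher geometric mean in irradiated mice (adjusted p = 0.819 in limma). It ranked 81st by p among all genes higher in irradiated mice. Leaving out 1 array at a time gave between 0.95 (irradiated mouse 1 absent) and 1.65 (irradiated mouse 4 absent).

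Mx2 stood at 8.65, 8.02, 6.70 and 7.20 in irradiated mice 1 to 4, against 6.84, 6.39, 6.71 and 7.27 in sham mice 1 to 4. Here irradiated mouse 3, not mouse 4, was the lowest irradiated animal, and both lay inside the sham range. The difference was 0.84 ± 0.37 (SE; 95% interval 0.01 to 1.66; adjusted p = 0.819 in limma), or 0.50 without irradiated mouse 1.

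The IFIT genes encode tetratricopeptide repeat proteins that bind foreign RNA and block its translation. Ifit1, which recognises RNA caps that lack the host's methyl mark, stood at 8.87, 8.72, 8.02 and 6.91 in irradiated mice 1 to 4. In sham mice 1 to 4 it stood at 7.74, 7.19, 6.43 and 7.82. The groups overlapped through irradiated mouse 4, and the sham mice themselves spanned 1.39. The difference was 0.84 ± 0.43 (SE; adjusted p = 0.822 in limma), 0.55 if sham mouse 3 was left out and 1.24 if irradiated mouse 4 was.

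Ifit2, an IFIT protein linked to cell death as well as to antiviral defence, stood at 8.01, 7.61, 6.80 and 6.24 in irradiated mice 1 to 4, against 6.82, 6.54, 6.39 and 6.75 in sham mice 1 to 4. Irradiated mouse 4 was the lowest of all 8 animals. The difference was 0.54 ± 0.33 (SE; adjusted p = 0.839 in limma), or 0.26 without irradiated mouse 1.

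Ifit3, whose human counterpart binds and stabilises IFIT1, stood at 8.58, 8.21, 7.18 and 6.99 in irradiated mice 1 to 4, against 7.50, 6.97, 7.28 and 7.35 in sham mice 1 to 4. Irradiated mice 3 and 4 both lay within the sham range. Its difference of 0.46 ± 0.32 (SE; adjusted p = 0.857 in limma) was the smallest of the 8 genes, and it was 0.19 without irradiated mouse 1.

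Rsad2 encodes viperin, a radical SAM enzyme that turns a cellular nucleotide into a chain terminator of viral RNA polymerases, and its neighbour Cmpk2 encodes a mitochondrial nucleotide kinase that supplies nucleotides of this kind. Rsad2 stood at 9.35, 9.56, 9.49 and 7.96 in irradiated mice 1 to 4, against 9.18, 7.92, 7.28 and 8.94 in sham mice 1 to 4. Here irradiated mouse 3 was as high as mice 1 and 2, and the sham mice formed a high pair (1 and 4) and a low pair (2 and 3). The difference was 0.76 ± 0.46 (SE; 95% interval -0.26 to 1.78; adjusted p = 0.835 in limma), and it was 0.41 without sham mouse 3 and 1.14 without irradiated mouse 4. Cmpk2 stood at 8.50, 8.10, 7.70 and 7.20 in irradiated mice 1 to 4, against 7.27, 7.26, 6.87 and 7.59 in sham mice 1 to 4. Irradiated mice 1 to 3 lay above every sham mouse and mouse 4 below 3 of the 4. The difference of 0.63 ± 0.26 (SE; 95% interval 0.06 to 1.20) had an adjusted p of 0.819 in limma.

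Bst2 encodes tetherin, which holds budding virions at the cell surface and, in mice, is also an antigen used to sort plasmacytoid dendritic cells. It stood at 10.92, 10.34, 9.91 and 9.79 in irradiated mice 1 to 4, against 9.54, 9.61, 9.45 and 10.19 in sham mice 1 to 4. All 4 irradiated mice lay above sham mice 1 to 3, and the overlap came from sham mouse 4. The difference was 0.54 ± 0.25 (SE; 95% interval -0.02 to 1.09; adjusted p = 0.822 in limma), 0.31 if irradiated mouse 1 was left out and 0.70 if sham mouse 4 was.

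**Figure D2:**
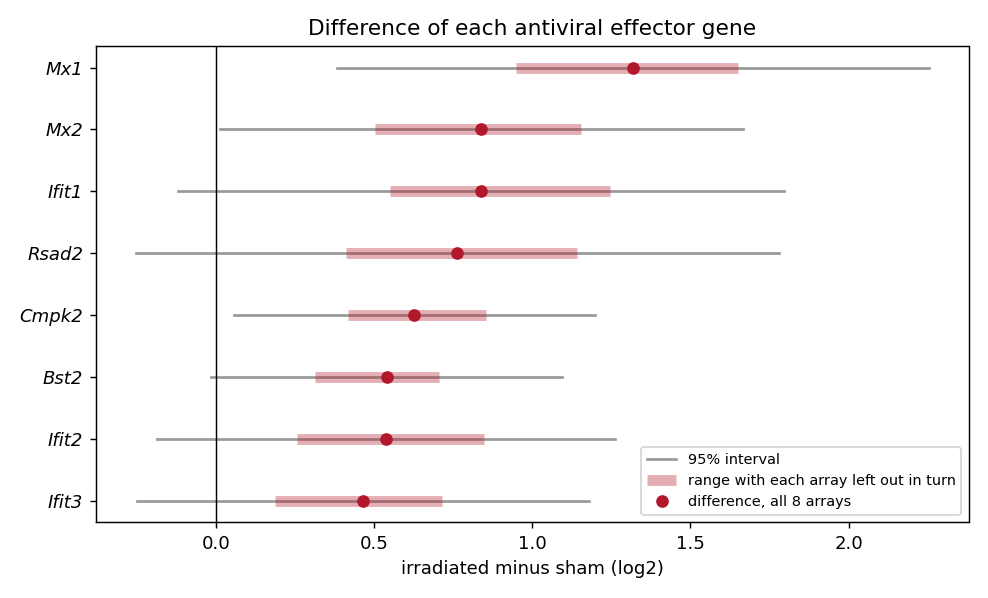
Difference between irradiated and sham mice (log2, horizontal axis) for each effector gene, ordered by size, with its 95% interval in grey and, in light red, the range of the difference when each array is left out in turn. All 8 differences stay above 0 with any array left out, while the 95% intervals of Ifit1, Rsad2, Bst2, Ifit2 and Ifit3 include 0.

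The spread among irradiated mice was a main feature of these genes, though not one particular to them. The mean of the 8 effectors had an SD of 0.72 among irradiated and 0.33 among sham mice. For the mean of the 48 other interferon-stimulated genes described below it was 0.47 and 0.11. The median SD of the 8 transcripts was 0.79 among irradiated mice and 0.32 among sham mice, against medians of 0.17 and 0.18 over all genes. The SD was larger in irradiated than in sham mice for 7 of the 8 (47.1% of all genes) and over 2 times as large for Ifit2, Ifit3, Mx1 and Mx2 (14.3% of all genes). The ratio was 4.06 for Ifit2, 3.74 for Mx1, 3.47 for Ifit3 and 2.37 for Mx2. Rsad2 was the exception, with an SD of 0.76 among irradiated and 0.89 among sham mice.

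Rsad2 and Ifit1 varied widely in the sham group too: only 0.784% and 1.89% of all genes had a larger SD among sham mice, where for the other 6 effectors this share was between 10.2% and 45.2%. In the irradiated group the share of all genes with a larger SD was between 0.415% for Mx1 and 3.43% for Bst2. Irradiated mouse 1 was the highest of all 8 mice for 7 of the 8 genes (9.65% of all genes), the exception being Rsad2. Irradiated mouse 4 was the lowest irradiated mouse for 7, the exception being Mx2. Among sham mice, mouse 3 was the lowest for 6 genes. How often these mice were the lowest of their group over all genes was not computed, so both counts lack a background share.

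**Figure D3:**
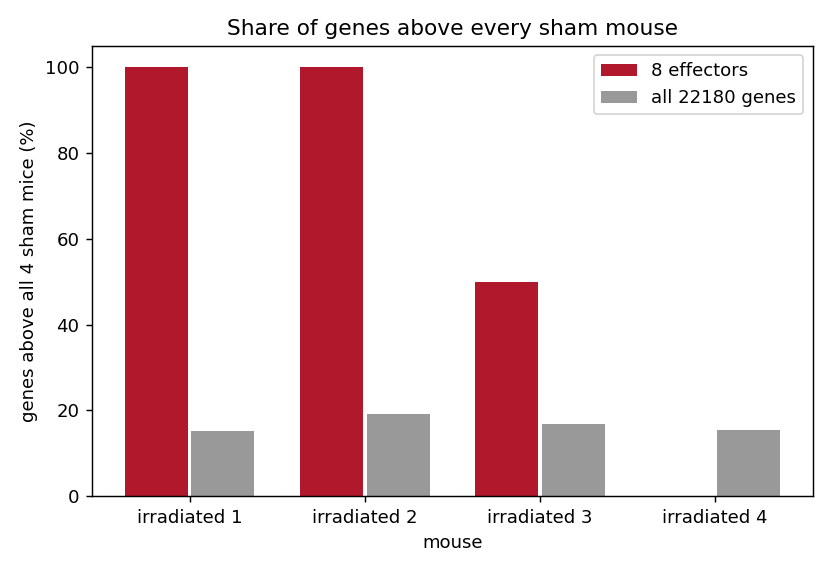
Share of genes (%, vertical axis) whose level in a given irradiated mouse was above all 4 sham mice, for the 8 effectors in red and for all 22180 genes in grey. The effectors' share was 100% in irradiated mice 1 and 2, 50% in mouse 3 and 0% in mouse 4, against 15.2%, 19.2%, 16.8% and 15.4% of all genes.

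The 8 genes did not all follow one order across mice. Over the 8 arrays the Pearson correlation between pairs of effectors ran from 0.52, for Mx2 and Rsad2, to 0.96, for Ifit2 and Ifit3. These values rest largely on irradiated mice 1 and 2; over the other 6 arrays Ifit1 and Rsad2 kept a correlation of 0.97, Ifit1 and Cmpk2 one of 0.92, and Ifit1 and Ifit2 one of 0.88. Over the same 6 arrays the correlation of Mx1 with Ifit3 was -0.59 and that of Mx1 with Mx2 was -0.10. These are descriptions over few arrays that share their normalization.

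The genes outside the set most like it were chosen by the Pearson correlation of their level with the mean of the 8 effectors over the 8 arrays. Predicted genes (symbols of Gm and a number, or ending in Rik) were left out of this choice. Each correlation is given also over the 6 arrays without irradiated mice 1 and 2. They were Tgm6 (0.99 over 8 arrays, 0.93 over 6), Usp18 (0.98 and 0.92), Nmral1 (0.98 and 0.88), Pde7b (0.98 and 0.94) and Isg15 (0.97 and 0.89). The next were Tmem86a (0.97 and 0.93), Slamf7 (0.96 and 0.82), Apobec1 (0.96 and 0.91), Phf11d (0.96 and 0.67) and Tor3a (0.95 and 0.72). Usp18, the protease that strips ISG15 from proteins and damps receptor signalling, stood at 9.12, 8.55, 7.72 and 7.21 in irradiated mice 1 to 4, against 7.55, 7.12, 7.13 and 7.93 in sham mice 1 to 4. Isg15, the ubiquitin-like modifier itself, stood at 10.44, 9.92, 9.40 and 9.06 in irradiated mice 1 to 4, against 9.37, 9.27, 8.80 and 9.35 in sham mice 1 to 4. Both have the order of irradiated mice seen for most effectors, which their choice by correlation over these same arrays favours. Tgm6 lay under the median of all rows on every array, between 4.10 and 4.53, so its pattern is one of small steps in a dim transcript.

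Close relatives of the effectors were uneven. Of 12 relatives listed, 10 had a row, 4 higher (42.2% of all genes) and 6 lower in irradiated mice. Of the 10, 0 passed the adjusted threshold in limma. At an unadjusted p under 0.05 in limma 2 were higher, Ifit3b and Ifi27l2b (2.05% of all genes), and 0 lower (4.03%). Ifit3b, the copy of Ifit3 whose promoter window is shown above, stood at 7.91, 6.75, 6.68 and 5.54 in irradiated mice 1 to 4, against 5.85, 5.55, 5.79 and 5.68 in sham mice 1 to 4. Irradiated mice 1 to 3 lay above all sham mice, whereas for Ifit3 this held for mice 1 and 2 alone. The difference was 1.00 ± 0.38 (SE; adjusted p = 0.819 in limma), and how far the array's probes separate the copies was not tested.

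Ifit1bl1 was the most variable relative, at 9.63, 8.10, 6.27 and 6.15 in irradiated mice 1 to 4, against 7.17, 7.71, 7.63 and 7.32 in sham mice 1 to 4. Irradiated mice 1 and 2 lay above all sham mice and irradiated mice 3 and 4 below all of them, so the mean difference was 0.08 ± 0.65 (SE). Ifi44l, the relative of the unmeasured Ifi44, lay near the floor of the arrays, between 2.97 and 3.24 in irradiated and 3.06 and 3.26 in sham mice. Ifitm2 and Ifitm3, membrane proteins that block viral entry, were high and flat: Ifitm3 averaged 12.13 ± 0.10 in irradiated and 12.11 ± 0.04 in sham mice (SD, n = 4 each).

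**Figure D4:**
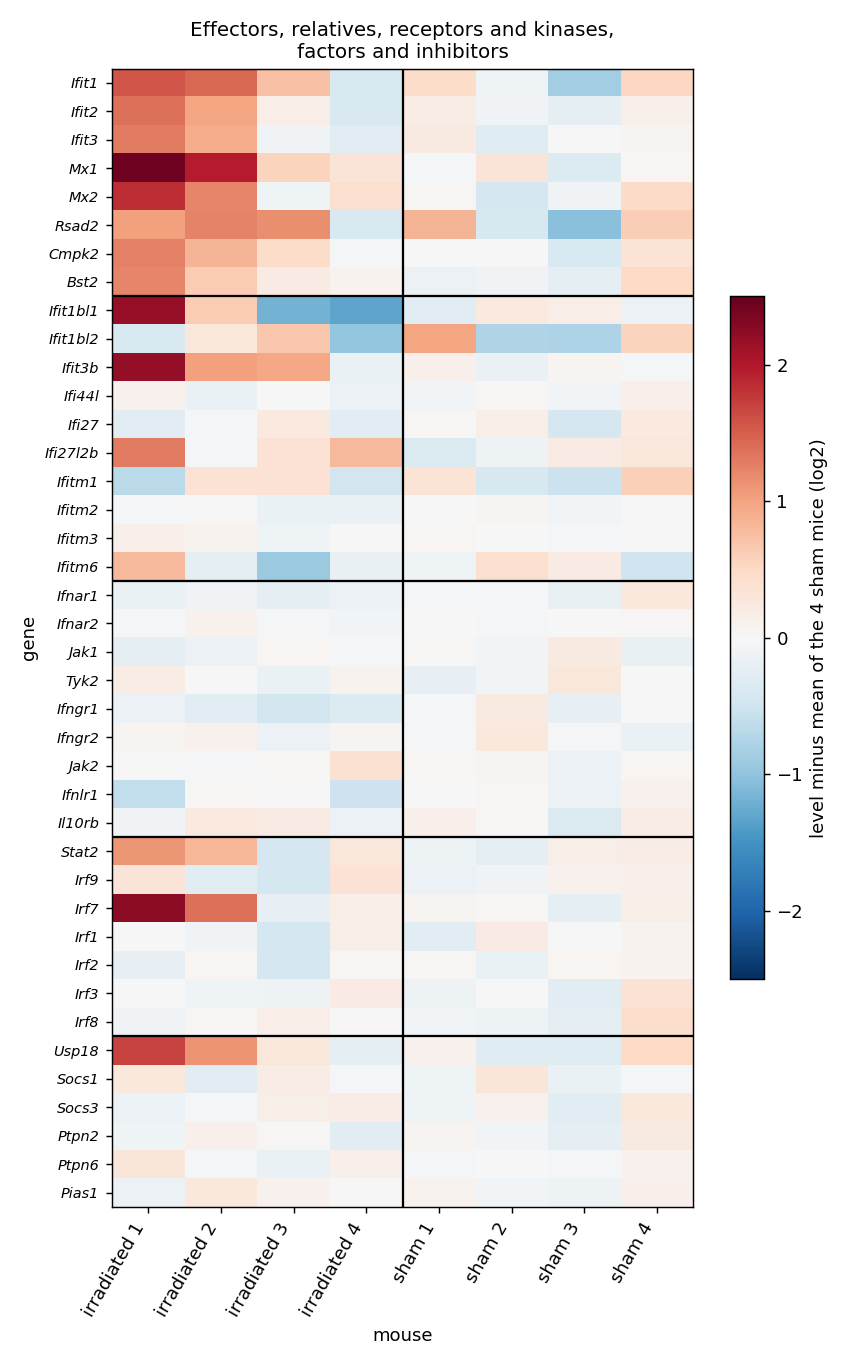
Level of each gene in each mouse minus the mean of the 4 sham mice (log2; red higher, blue lower), with irradiated mice left of sham mice; horizontal lines part the effectors, their relatives, the interferon receptors and kinases, the transcription factors and the inhibitors. The red blocks in irradiated mice 1 and 2 cover all 8 effectors, Ifit1bl1, Ifit3b, Stat2, Irf7 and Usp18. Among the receptors and kinases none has irradiated mice 1 and 2 both above all sham mice, and Ifnlr1 is blue in irradiated mice 1 and 4, at 4.34 and 4.45 against a sham mean of 4.96.

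Upstream of these genes, 19 of the 21 interferon genes listed had a row. Of these, 6 averaged higher (42.2% of all genes) and 13 lower in irradiated mice, and 9 averaged under the median of all rows. Irradiated mice 1 and 2 both exceeded all sham mice for 2 of the 19, Ifnl3 and the dim Ifne (5.5% of all genes). Ifne stood at 3.81, 3.64, 3.54 and 3.53 in irradiated mice 1 to 4, against 3.58, 3.62, 3.36 and 3.27 in sham mice 1 to 4, in the order of irradiated mice seen for most effectors. Ifnb1, which encodes interferon beta, stood at 3.80, 6.20, 6.91 and 5.58 in irradiated mice 1 to 4, against 6.05, 4.62, 5.87 and 5.11 in sham mice 1 to 4. It was lowest of all 8 mice in irradiated mouse 1, where the effectors were highest. Its difference was 0.21 ± 0.58 (SE), -0.22 if irradiated mouse 3 was left out and 0.82 if irradiated mouse 1 was. Ifnl3, an interferon lambda gene, was higher by 0.71 ± 0.24 and Ifna4 lower by 0.42 (both adjusted p = 0.819 in limma). Ifng, a product of T and NK cells, stood at 5.31, 5.07, 4.65 and 5.89 in irradiated mice 1 to 4, against 4.42, 6.89, 7.38 and 4.45 in sham mice 1 to 4.

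Of the 9 receptors and kinases, 4 averaged higher (42.2% of all genes) and 5 lower in irradiated mice. In limma 0 passed the adjusted threshold and 1, Ifngr1, was lower at an unadjusted p under 0.05 (4.03% of all genes). Ifngr1, a chain of the interferon gamma receptor, stood at 10.67, 10.56, 10.35 and 10.47 in irradiated mice 1 to 4, against 10.79, 11.05, 10.61 and 10.82 in sham mice 1 to 4. Irradiated mice 2, 3 and 4 lay below all sham mice, and the difference was -0.30 ± 0.12 (SE; adjusted p = 0.819 in limma). Ifnar1 averaged 9.79 ± 0.05 in irradiated and 9.95 ± 0.19 in sham mice, and Ifnar2 10.81 ± 0.07 and 10.82 ± 0.03 (SD, n = 4 each). Among the transcription factors, Irf7, itself induced by interferon and a driver of further interferon production, stood at 10.38, 9.54, 7.95 and 8.30 in irradiated mice 1 to 4, against 8.21, 8.17, 7.92 and 8.31 in sham mice 1 to 4. The difference was 0.89 ± 0.44 (SE; adjusted p = 0.822 in limma), or 0.44 without irradiated mouse 1. Stat2 was higher by 0.45 ± 0.28, with irradiated mice 1, 2 and 4 at 9.36, 9.08 and 8.54 above all sham mice and mouse 3 at 7.83 below them all. Irf9, which binds DNA together with Stat2, averaged 7.78 ± 0.40 in irradiated and 7.79 ± 0.14 in sham mice. Of the 6 inhibitors, Usp18 alone had irradiated mice 1 and 2 above all sham mice; Socs1 averaged 6.77 ± 0.24 and 6.74 ± 0.21.

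A list of 53 other interferon-stimulated genes had 48 measured members, and 47 of these averaged higher in irradiated mice (42.2% of all genes). Their median difference was 0.44. In limma 9 were higher at an unadjusted p under 0.05 (2.05% of all genes) and 0 passed the adjusted threshold. Irradiated mice 1 and 2 both exceeded all sham mice for 42 of the 48 (5.5% of all genes). The smallest p values belonged to Ifi204, a nuclear DNA sensor (0.43 ± 0.13, SE), Ifih1, the RNA sensor MDA5 (0.63 ± 0.23), Parp14 (0.47 ± 0.17), Samd9l (0.36 ± 0.13) and Znfx1 (0.47 ± 0.18), all with an adjusted p of 0.819 in limma. Every irradiated mouse lay above every sham mouse for 3 of the 48, Ifi204, Ifih1 and Slfn1 (1.12% of all genes), Slfn1 being named after its values were seen, and for 0 of the 8 effectors. The largest p values belonged to Trim21 (0.01 ± 0.29), Irf9 (-0.01 ± 0.18) and Shisa5 (0.01 ± 0.16).

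Targets of p53, the transcription factor that responds to DNA damage, were set beside the effectors. The mean of 9 such genes was 7.44, 7.88, 8.11 and 7.51 in irradiated mice 1 to 4, and between 6.97 and 7.08 in sham mice. Each irradiated mouse thus lay above each sham mouse, and irradiated mouse 3 was the highest. Cyclin G1 (Ccng1) had levels of 10.60, 11.32, 11.74 and 10.91 in irradiated mice 1 to 4, against 10.04, 10.08, 9.85 and 10.15 in sham mice 1 to 4 (1.11 ± 0.21, SE; adjusted p = 0.589 in limma). Irradiated mouse 4, in which no effector exceeded the sham mice, was above all sham mice for Ccng1, Mdm2, Phlda3, Trp53inp1 and Cdkn1a.

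**Figure D5:**
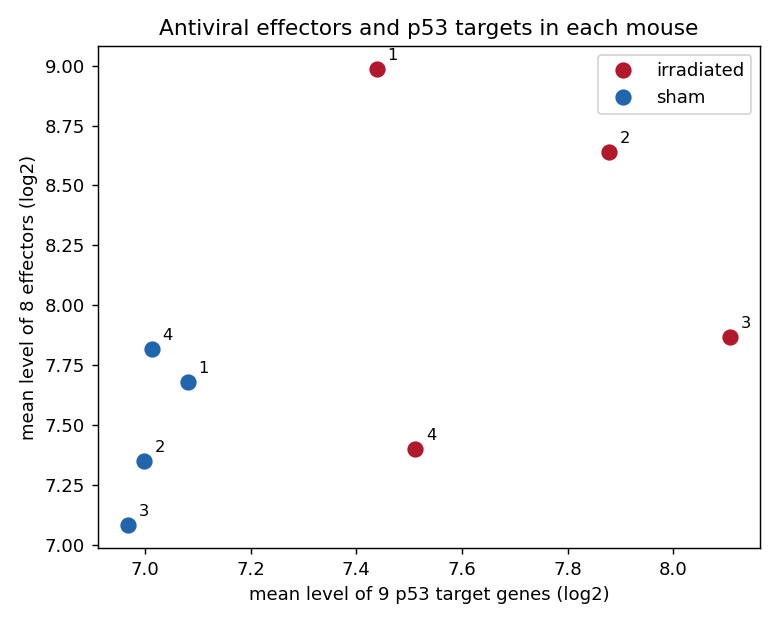
Mean level of the 8 effectors (log2, vertical axis) against the mean level of 9 p53 target genes (log2, horizontal axis) in each mouse, irradiated in red and sham in blue, with the mouse number beside each point; the axes do not start at 0. The 4 irradiated mice lie right of all sham mice on the p53 axis, but on the effector axis irradiated mouse 4 at 7.40 lies among the sham mice.

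The array reads RNA of the whole sort, so fewer cells of a type and less RNA per cell cannot be told apart. Markers of other cell types differed between arrays. Of 17 T and NK cell markers 15 were measured, 13 of them lower and 2 higher in irradiated mice (42.2% of all genes were higher). Their summed linear level ran from 832 to 2596 in irradiated and from 948 to 6148 in sham mice. Their mean was 6.89, 5.44, 5.39 and 6.92 in irradiated mice 1 to 4, where the mean of the 8 effectors was 8.99, 8.64, 7.87 and 7.40. In sham mice 1 to 4 it was 5.45, 7.83, 7.99 and 5.95, where the mean of the 8 effectors was 7.68, 7.35, 7.08 and 7.82. Sham mice 2 and 3, high for these markers, were thus the lower sham pair for the effector mean as well as for Rsad2. All 11 neutrophil markers averaged lower in irradiated mice, where 42.2% of all genes averaged higher. Their summed level was 2382 to 11324 in irradiated and 6208 to 12135 in sham mice. The mean of the list was 5.89, 6.66, 7.20 and 6.04 in irradiated mice 1 to 4, against 7.06, 7.24, 8.69 and 6.78 in sham mice 1 to 4. It was lowest in irradiated mice 1 and 4. The lower means of single markers did not all arise alike, as 2 genes named after their values were seen show. Camp stood at 8.02 and 10.10 in sham mice 2 and 3 but at 3.08 and 3.34 in sham mice 1 and 4. In irradiated mice Camp lay between 3.08 and 3.69. S100a8 instead was low in irradiated mice 1 and 4, at 10.19 and 9.77, against 11.37 to 12.21 in sham mice. The part of neutrophils and lymphocytes in these differences was not tested.

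Plasmacytoid dendritic cells are strong interferon producers and carry Bst2. All 9 of their markers were measured, 7 of them lower and 2 higher in irradiated mice (42.2% of all genes were higher). The summed level was 465 to 547 in irradiated and 471 to 984 in sham mice. The mean of the list was 5.15, 5.09, 4.91 and 5.10 in irradiated mice 1 to 4, against 4.99, 5.76, 6.24 and 5.05 in sham mice 1 to 4. The irradiated mice spanned a narrow range, and sham mice 2 and 3 stood above all others. Summed levels of the other lists, in irradiated and then sham mice, were 1077 to 1691 and 1230 to 1790 for conventional dendritic cells (7 of 8 measured), 224 to 418 and 258 to 636 for B cells (8 of 9 measured), and 787 to 2217 and 808 to 2773 for epithelial and stromal cells (9 of 9 measured). The lowest value of any row was 1.89, so a listed level does not by itself show that a transcript was present. Averages under the median of all rows were found for 4 plasmacytoid, 0 conventional dendritic cell, 2 B cell and 1 epithelial and stromal markers. The part of these cells in the effectors' levels was not tested.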

How the data were processed

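The authors deposited log2 levels per probe set (the scale was judged from the values); RMA and Partek are named, without settings, per the submitters' processing notes. RNA (25 ng per mouse) was amplified linearly before labelling, per the labels' protocols. Groups were taken from the sample titles. Of 34365 rows, 23521 carried 1 symbol; for symbols with several rows the brightest over all arrays was kept, and each measured effector had 1 row. No filter on dim genes was applied.

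A two-sided moderated test (lmFit, then eBayes; limma 3.58.1, R 4.3.3) was adjusted by Benjamini-Hochberg over all 22180 genes; the script was tested on simulated data. Differences are irradiated minus sham. Precision is limited by the number of arrays. The effectors, the comparison lists, the likeness rule and the alternatives were chosen with earlier results of these data known. The text names all effectors, members of the pathway lists, the 5 smallest and 3 largest p values of the other interferon-stimulated genes, the 10 genes most like the effectors, and the p53 targets and the sort markers. Same-numbered mice of the groups are not said to be paired. The labels do not state a batch.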

Additional observations from a re-analysis of the deposited data

Results flagged for a closer look

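Arrays set apart within their group of 4 by Dixon's test were sought in 168 groups of values, of which chance gives about 1 in 20; 6 were found. Among the effectors there was 1, Rsad2, which stood at 7.956 in irradiated mouse 4, against 9.349 in the nearest irradiated mouse. The other 5 were small steps in pathway genes. Ifna15 stood at 5.77 in irradiated mouse 2, Ifngr2 at 9.66 in irradiated mouse 3, Jak2 at 10.736 in irradiated mouse 4, Ifitm3 at 12.16 in sham mouse 1 and Ifnar2 at 10.776 in sham mouse 2.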

How the results depend on the processing

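The fit was repeated under 7 other settings and with each of the 8 arrays left out in turn. The settings were quantile normalization, array medians subtracted, dim genes left out and all rows of a gene averaged. Further ones were a robust variance with a trend, weighted arrays and the mouse number as a replicate block. Leaving out dim genes, averaging rows, the robust variance and the replicate block could not alter an effector's difference here, only its p value. Subtracting array medians shifted all differences alike. All 120 differences of the 8 effectors, those that could not change included, kept their direction. Of these, 0 passed the adjusted threshold in limma. The mean difference of 0.74 over the 8 effectors ran from 0.70 to 0.80 under the 7 settings and with an array left out from 0.49 (irradiated mouse 1 absent) to 1.02 (irradiated mouse 4 absent). The count of genes past the threshold was 0 under each of the 7 settings and ran from 0 to 1 with an array left out, the 1 being without irradiated mouse 1. With the mouse number as a replicate block the count was 0 and each effector had an adjusted p of 0.957; the deviations of same-numbered mice correlated between -0.28 and -0.14, so the numbers were not taken as pairs. Signal over background was not measured.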
